A study of Mus musculus with 8 samples.

Results

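The genes described are 10 members of the Wnt ligand family, Wnt2, Wnt2b, Wnt4, Wnt5a, Wnt5b, Wnt7b, Wnt9a, Wnt10a, Wnt10b and Wnt11, as measured in mouse lung mesenchyme. Each was chosen by its symbol, though with earlier results of these data known, and all 10 had exactly 1 probe set annotated to that gene alone. They are 10 of 22180 genes tested. The bleomycin group was made up of 4 arrays of cells from 11-week-old C57BL/6J mice that had received bleomycin, a DNA-damaging drug that injures the lung, through the trachea. The control group was made up of 4 arrays from mice of the same strain and age that had received phosphate-buffered saline by the same route. All mice were kept under specific pathogen-free conditions, and the cells were sorted on day 10 as negative for CD45, CD31 and EpCAM, the surface antigens of leukocytes, endothelium and epithelium. The gate is defined by what it leaves out, so it holds fibroblasts, smooth muscle, pericytes and any other cell without those antigens. The labels give neither the bleomycin dose nor whether the replicates came from separate animals, so the p-values measure the spread between these arrays, which may be technical.

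Wnt proteins are secreted, lipid-modified glycoproteins that act over short distances. Porcn attaches the lipid, Wls carries the ligand to the cell surface, and Frizzled receptors bind it. Together with the co-receptors Lrp5 and Lrp6 the signal stabilises beta-catenin and turns on targets such as Axin2, whereas signalling through Ror1, Ror2 and Ryk controls cell shape and movement without beta-catenin. In the mouse embryo Wnt2 and Wnt2b from the mesenchyme are jointly needed to specify the lung. Wnt5a shapes the distal airways and alveoli and is the classic ligand of Ror2, and Wnt7b is made by the developing lung epithelium.

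Levels are log2 intensities as deposited, and differences are bleomycin minus control in log2 units. Arrays give no read depth, and their number limits the precision. Levels of different probe sets are not comparable, so no order among the ligands is given. The array medians of 16010 probe sets without an annotated gene were 4.20 to 4.35 on bleomycin arrays and 4.44 to 4.52 on control arrays, and ligands near these values cannot be told from background with the data used here. Pan-mesenchymal genes (Col1a1, Col1a2, Col3a1, Pdgfra, Pdgfrb and Vim) were bright, with a list mean of 12.18 to 12.38 on bleomycin arrays and 11.56 to 11.86 on control arrays. They did not move as a set: 4 of the 6 were called higher. Pdgfra was called lower, by 0.43 (limma adjusted p = 0.00558), and Vim was not called. Genes of cells that the gate should remove were also measured: Sftpc, a surfactant gene of alveolar epithelium, averaged 9.76 in bleomycin and 12.08 in control, and Pecam1, which encodes CD31, averaged 8.56 in bleomycin and 9.87 in control. The list mean of 13 alveolar epithelial genes was 6.51 to 7.44 on bleomycin arrays and 8.15 to 8.99 on control arrays, where replicates 1 and 2 (8.99 both) stood above replicates 3 and 4 (8.18 and 8.15). Blood endothelial genes split the controls in the same way, with list means of 9.25 and 9.40 in control replicates 1 and 2 and 8.44 and 8.31 in control replicates 3 and 4. Leukocyte genes, which the gate should also remove, were called higher in 3 of 8 cases (Cd68, Itgam and Tyrobp) and lower in none. Ptprc, which encodes CD45, differed by -0.48 and Lyz2 by -0.57, neither called (limma adjusted p of 0.0529 and 0.0951). Csf1r, Mrc1 and Cd3e differed by 0.34, 0.20 and 0.19 and were not called either. The leukocyte list means were 6.81 to 7.12 on bleomycin arrays and 6.53 to 6.93 on control arrays. Epcam itself averaged 4.43 in bleomycin and 4.99 in control and was not called. The 5 ligands at or near the threshold are given with and without control replicates 1 and 2, and the others where their difference moved by over 1.5-fold. Leaving these 2 arrays out does not level the marker lists between the groups. Control replicates 3 and 4 also stood above every bleomycin array for alveolar epithelium (at most 7.44) and blood endothelium (at most 7.87).

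The ligands moved in both directions. Wnt2 and Wnt2b fell in mesenchymal samples of bleomycin-treated lungs, Wnt5a and Wnt11 rose, and the other 6 were not called. Among all tested genes 17.4% were called, 9.12% higher and 8.24% lower (limma, Benjamini-Hochberg adjusted p under 0.05 over 22180 genes). Of the 10 ligands 2 were called higher and 2 lower, and in these 4 the groups did not overlap, as in 23.5% of all tested genes (12.5% with bleomycin above control and 11.0% below). The median difference of the ligands was -0.17, against 0.027 for all tested genes, and their median absolute difference was 0.43, against 0.16. The numbers of genes behind these shares, 2022 higher and 1828 lower, became 1623 and 2314 when each array was centred on its median, while the 4 ligand calls held.

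**Figure D1:**
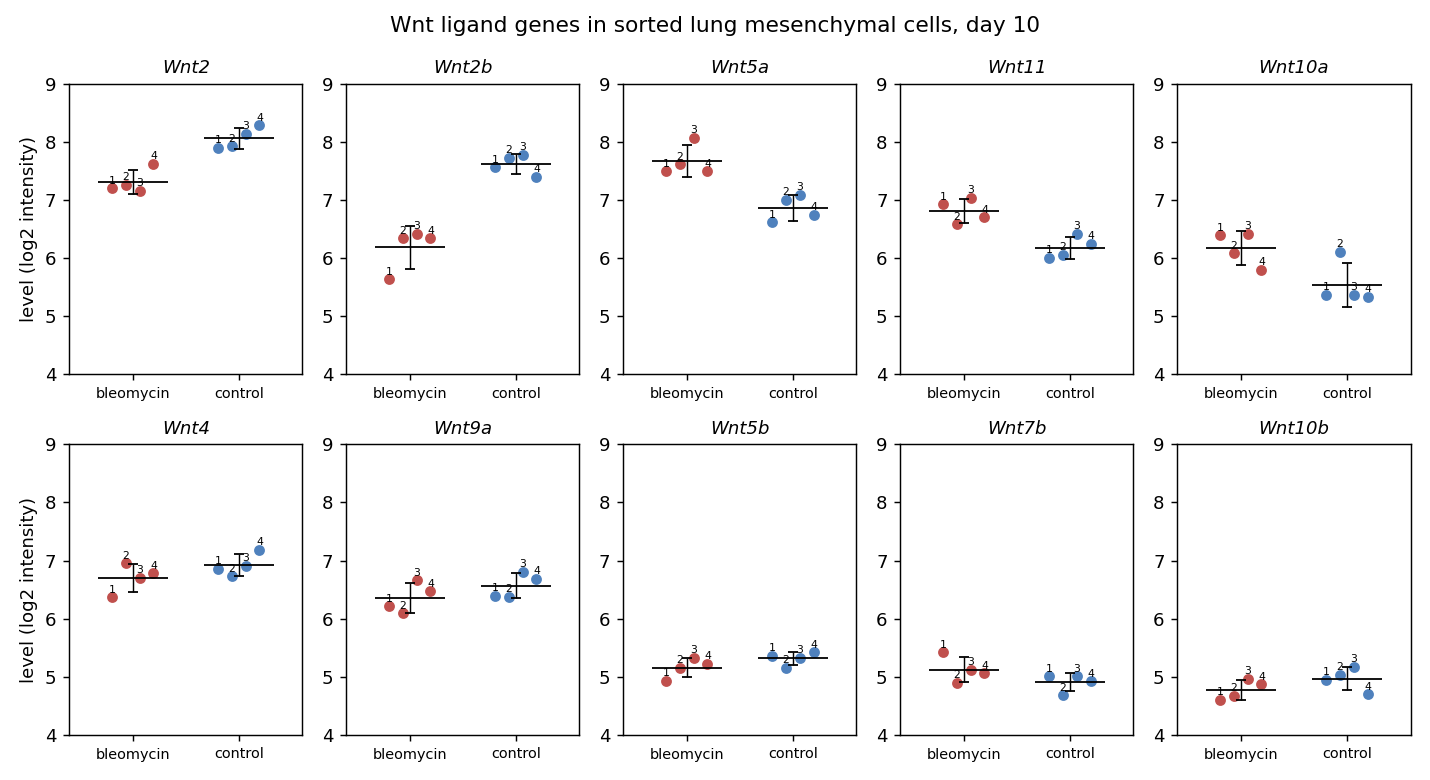
Levels of the 10 Wnt ligand genes (log2 intensity, vertical axis) on each of the 4 bleomycin and 4 control arrays; numbers beside points are replicates, horizontal lines group means and bars ± 1 SD. The bleomycin points lie wholly below the control points for Wnt2 and Wnt2b and wholly above them for Wnt5a and Wnt11, and the groups overlap for the other 6.

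The sequences just upstream of the start sites of 3 of the 4 called ligands are shown because 2 of these genes fell and 1 rose. They come from RefSeq on build GRCm38.p6, 250 bases before the start site on the coding strand, and of the 10 ligands 7 had such a sequence in the table used. The motifs searched on both strands were GGGCGG (the GC box), CTTTGA (the TCF/LEF core, bound by the partners of beta-catenin), TGANTCA (AP-1) and TATAAA (the TATA box). Capitals mark every match, and adjoining capitals may hold overlapping matches.
Wnt2, chr6:18030446-18030695, minus strand: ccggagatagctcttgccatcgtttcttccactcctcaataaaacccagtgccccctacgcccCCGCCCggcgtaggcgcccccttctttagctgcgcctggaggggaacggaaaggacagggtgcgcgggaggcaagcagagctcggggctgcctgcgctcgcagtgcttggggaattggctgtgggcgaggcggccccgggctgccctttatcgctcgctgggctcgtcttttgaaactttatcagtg
Wnt2b, chr3:104961710-104961959, minus strand: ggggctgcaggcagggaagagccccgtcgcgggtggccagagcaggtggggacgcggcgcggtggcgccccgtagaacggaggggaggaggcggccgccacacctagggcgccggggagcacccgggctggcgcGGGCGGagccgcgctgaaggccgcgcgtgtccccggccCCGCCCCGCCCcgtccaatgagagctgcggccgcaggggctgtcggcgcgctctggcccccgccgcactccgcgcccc
Wnt11, chr7:98834862-98835111, plus strand: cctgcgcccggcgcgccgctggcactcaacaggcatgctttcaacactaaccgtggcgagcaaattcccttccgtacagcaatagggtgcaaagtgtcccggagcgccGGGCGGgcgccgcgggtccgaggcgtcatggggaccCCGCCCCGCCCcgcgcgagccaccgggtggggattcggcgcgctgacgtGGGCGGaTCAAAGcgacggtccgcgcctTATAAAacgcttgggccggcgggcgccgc
The Wnt2 window held 1 GC box and 20 CpG dinucleotides and the Wnt2b window 3 GC boxes and 36 CpG dinucleotides, with none of the other motifs in either. The Wnt11 window held 4 GC boxes, 1 TCF/LEF core, 1 TATA box and 37 CpG dinucleotides. All 3 had more CpG dinucleotides than the upper quartile of 16 over 32851 promoter windows of the same length. Of those windows 32.7% held a GC box, 13.8% a TCF/LEF core, 6.75% an AP-1 motif and 12.4% a TATA box. A second start site of Wnt11, at chr7:98838595-98838844, held none of these motifs. Ligands that were not called held such features too. Wnt4 had 8 GC boxes and 44 CpG dinucleotides, and Wnt9a 5 GC boxes and 48 CpG dinucleotides. A Wnt5b window held 1 TCF/LEF core, 2 GC boxes and 7 CpG dinucleotides. Another held 1 AP-1 motif, 1 GC box and 35 CpG dinucleotides. The remaining Wnt5b window and that of Wnt10b held none of the motifs, with 4 and 14 CpG dinucleotides. Wnt5a was not among the 7.

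Wnt2b had the largest difference of the 10. It was measured at 5.63, 6.34, 6.41 and 6.34 in bleomycin replicates 1 to 4, against 7.56, 7.72, 7.78 and 7.40 in control replicates 1 to 4. All bleomycin arrays lay below all control arrays, by at least 0.99, and bleomycin replicate 1 was the lowest. The means were 6.18 ± 0.37 in bleomycin and 7.62 ± 0.17 in control (SD, n = 4 each). Wnt2b was thus 2.71-fold lower, with a log2 difference of -1.44 ± 0.17 (SE; limma adjusted p = 0.000403). Of all tested genes 1.27% were both called and over 2-fold lower. It was the only ligand changed by over 2-fold, and ranked 295 of 22180 by the size of its difference. Without control replicates 1 and 2 the difference was -1.41 (limma adjusted p = 0.00864). It was -1.66 within replicates 1 and 2 alone and -1.21 within replicates 3 and 4 alone, and was called in both.

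Wnt2, the close relative of Wnt2b, also fell. Its levels were 7.20, 7.26, 7.15 and 7.62 in bleomycin replicates 1 to 4, against 7.90, 7.92, 8.14 and 8.28 in control replicates 1 to 4. The groups were separated by 0.28, and replicate 4 was the highest array of both groups. The means were 7.31 ± 0.21 in bleomycin and 8.06 ± 0.18 in control (SD, n = 4 each), a 1.68-fold lower level with a log2 difference of -0.75 ± 0.13 (SE; limma adjusted p = 0.00304). Without control replicates 1 and 2 the difference was -0.90 (limma adjusted p = 0.00981). Within replicates 1 and 2 it was -0.68 and called, and within replicates 3 and 4 it was -0.82 and not called (limma adjusted p = 0.079).

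Markers of several cell types were lower in the same samples as Wnt2 and Wnt2b. Of 9 alveolar fibroblast genes 7 were lower, and their list mean was 9.99 to 10.75 on bleomycin arrays and 10.95 to 11.24 on control arrays. Of 8 adventitial fibroblast genes 5 were lower, with list means of 8.91 to 9.33 on bleomycin arrays and 9.64 to 9.99 on control arrays. Alveolar epithelial genes were lower in 12 of 13 cases and blood endothelial genes in 8 of 10. In samples of sorted cells, fewer cells that express a gene and less RNA per cell cannot be told apart, and the part of these markers in the ligand results was not tested.

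**Figure D2:**
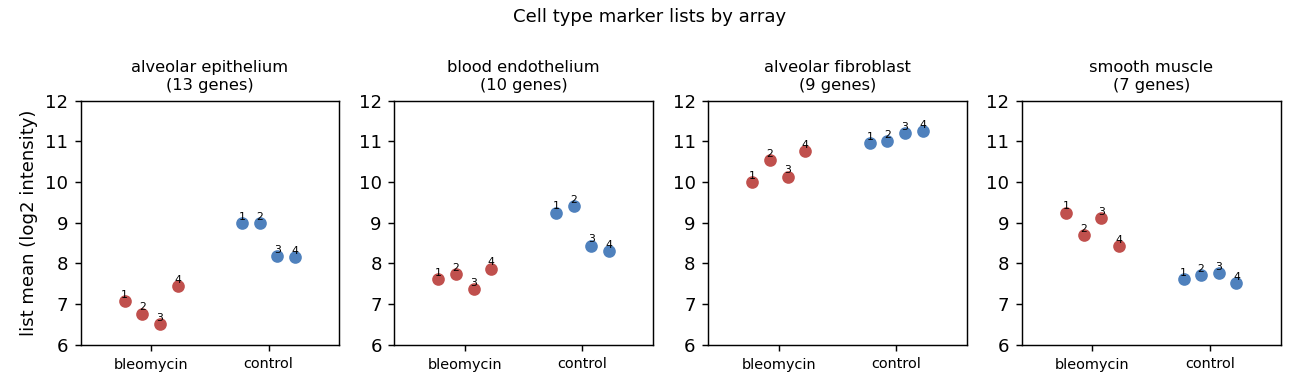
Mean level (log2 intensity, vertical axis) of 4 cell type marker lists on each bleomycin and control array, with replicate numbers beside the points. Alveolar fibroblast means are 9.99 to 10.75 on bleomycin arrays and 10.95 to 11.24 on control arrays, smooth muscle means are 8.42 to 9.25 on bleomycin arrays and 7.52 to 7.77 on control arrays, and control replicates 1 and 2 stand above control replicates 3 and 4 for epithelium and endothelium.

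Wnt5a rose. It was measured at 7.49, 7.61, 8.07 and 7.49 in bleomycin replicates 1 to 4, against 6.61, 7.0, 7.09 and 6.74 in control replicates 1 to 4. Every bleomycin array lay above every control array, by at least 0.39, and replicate 3 was the highest of both groups. The means were 7.66 ± 0.27 in bleomycin and 6.86 ± 0.23 in control (SD, n = 4 each), a 1.74-fold higher level with a log2 difference of 0.80 ± 0.15 (SE; limma adjusted p = 0.00537). Without control replicates 1 and 2 it was 0.74 (limma adjusted p = 0.0439). The difference was 0.74 within replicates 1 and 2 and 0.86 within replicates 3 and 4, where 2 arrays per group gave no call (limma adjusted p of 0.0578 and 0.113).

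Wnt11, which like Wnt5a is best known for signalling without beta-catenin and for guiding cell movements in the embryo, also rose. Its levels were 6.92, 6.58, 7.03 and 6.70 in bleomycin replicates 1 to 4, against 6.00, 6.05, 6.41 and 6.24 in control replicates 1 to 4. The groups were 0.17 apart, the smallest gap among the 4 called ligands, between bleomycin replicate 2 and control replicate 3. The means were 6.81 ± 0.21 in bleomycin and 6.17 ± 0.18 in control (SD, n = 4 each), a 1.55-fold higher level with a log2 difference of 0.63 ± 0.13 (SE; limma adjusted p = 0.00713). The call was lost without control replicates 1 and 2, where the difference was 0.49 (limma adjusted p = 0.0826). It was 0.72 within replicates 1 and 2 and 0.55 within replicates 3 and 4 (limma adjusted p of 0.0515 and 0.129). Of 7 smooth muscle genes 6 were called higher in the same samples. The list mean was 8.42 to 9.25 on bleomycin arrays and 7.52 to 7.77 on control arrays. Myh11 was the 1 not called (0.25, limma adjusted p = 0.221). Pericyte genes were mixed, with 3 of 8 called higher (Cspg4, Pdgfrb and Notch3) and 2 lower (Abcc9 and Higd1b). The 3 leukocyte genes named above were also higher, while Ptprc and Lyz2 were not. The part of these genes in the Wnt5a and Wnt11 results was not tested.

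**Figure D3:**
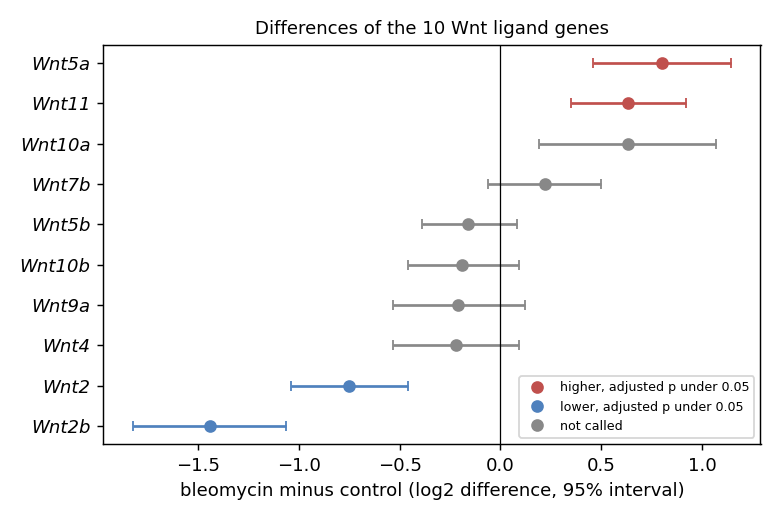
Bleomycin minus control difference (log2, horizontal axis) of each Wnt ligand gene with its 95% interval from limma, n = 4 arrays per group. The intervals of Wnt5a and Wnt11 lie above 0 and those of Wnt2 and Wnt2b below it; that of Wnt10a, 0.19 to 1.07, also lies above 0, but the gene did not pass after adjustment.

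Wnt10a, known for its role in teeth, hair and skin appendages, lay at the threshold. Its levels were 6.39, 6.08, 6.42 and 5.80 in bleomycin replicates 1 to 4, against 5.36, 6.11, 5.36 and 5.33 in control replicates 1 to 4. Control replicate 2 stood above the other controls and within the bleomycin range, so the groups overlapped. Those other controls were dim, at 5.33 to 5.36, so the size of the difference is uncertain. The means were 6.17 ± 0.29 in bleomycin and 5.54 ± 0.38 in control (SD, n = 4 each). The difference of 0.63 ± 0.20 (SE) had the same size as that of Wnt11 but was not called (limma adjusted p = 0.0515). Without control replicate 2 the difference was 0.82 and was called (limma adjusted p = 0.00751), and without bleomycin replicate 4 it was 0.75 and was called (limma adjusted p = 0.0266). It was also called without control replicates 1 and 2, at 0.83 (limma adjusted p = 0.0255), and when the split of replicates 1 and 2 from 3 and 4 was a blocking term, at 0.63 (limma adjusted p = 0.0474).

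The other 5 ligands differed by at most 0.22 in size with all arrays and were not called. Wnt4, a regulator of kidney and reproductive tract development, was measured at 6.37 to 6.95 on bleomycin arrays and 6.73 to 7.19 on control arrays, with a difference of -0.22 and a 95% interval of -0.53 to 0.09. Wnt9a, which acts in joint formation, was measured at 6.09 to 6.66 on bleomycin arrays and 6.38 to 6.81 on control arrays, with a difference of -0.21 (95% interval -0.53 to 0.12). For both the groups overlapped, and the intervals reach falls of 0.53 at most and rises of 0.12 at most. With control replicates 1 and 2 left out, the difference was -0.35 for Wnt4 and -0.39 for Wnt9a, still not called (limma adjusted p of 0.253 and 0.192).

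Wnt5b, Wnt7b and Wnt10b were dim. Wnt5b, the close relative of Wnt5a, was measured at 4.93 to 5.33 on bleomycin arrays and 5.15 to 5.42 on control arrays, a difference of -0.16 (95% interval -0.39 to 0.08). Wnt7b was measured at 4.90 to 5.42 on bleomycin arrays and 4.68 to 5.01 on control arrays, a difference of 0.22 (95% interval -0.06 to 0.50). Wnt10b, which in mice restrains fat cell formation and favours bone, was measured at 4.60 to 4.96 on bleomycin arrays and 4.70 to 5.17 on control arrays, a difference of -0.19 (95% interval -0.46 to 0.09). These 3 genes lay not far above the median of probe sets without a gene. Limma's adjusted p for these 5 ligands ran from 0.273 to 0.382.

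Pairs of close relatives were compared within each array, which asks whether 1 member of a pair changed more than the other. The Wnt5a minus Wnt5b difference was 2.56, 2.46, 2.74 and 2.26 in bleomycin replicates 1 to 4, against 1.25, 1.85, 1.76 and 1.33 in control replicates 1 to 4. It was larger on every bleomycin array, by 0.96 on average, and had the smallest p that 4 against 4 arrays allow (two-sided exact permutation p = 0.0286, adjusted over 3 pairs 0.0571). The Wnt2b minus Wnt2 difference averaged -1.13 ± 0.37 in bleomycin and -0.44 ± 0.30 in control (SD, n = 4 each), and the groups overlapped (exact permutation p = 0.0571, adjusted 0.0571). The Wnt10a minus Wnt10b difference averaged 1.40 ± 0.35 in bleomycin and 0.58 ± 0.38 in control (SD, n = 4 each), again with overlap (exact permutation p = 0.0571, adjusted 0.0571). None of the 3 pairs passed after adjustment, and with 4 arrays per group 1 pair alone at the smallest p could not have passed. Wnt5b and Wnt10b, and Wnt10a on most control arrays, are also dim, so the size of their changes is uncertain.

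For each called ligand, the tested genes with the nearest profile were found by the mean absolute distance over the 8 arrays after centring each gene on its mean. Nearest to Wnt2 were Rhob, a small GTPase gene, at a distance of 0.047 and Fitm2, a lipid droplet gene, at 0.061. Nearest to Wnt2b were Thbd, which encodes thrombomodulin, at 0.136 and Fmo1, a flavin monooxygenase gene, at 0.149. Nearest to Wnt5a were the type I collagen genes Col1a2 and Col1a1, at 0.085 and 0.088. Nearest to Wnt11 were Myh15, a myosin heavy chain gene, at 0.028 and Nrip3 at 0.047. Col1a1 rose by 0.83 ± 0.12 and Col1a2 by 0.72 ± 0.11 (SE; limma adjusted p of 0.00137 and 0.00175). That these lie close to the 0.80 of Wnt5a follows from choosing genes by their distance on the same arrays. These distances describe the same 8 arrays and carry no test.

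The other genes of the pathway were taken from 8 lists by role, with 92 of 94 genes measured. Of these 20 were called higher and 6 lower, set against the 9.12% and 8.24% of all tested genes, and their median difference was 0.01, against 0.027 for all tested genes. Without bleomycin replicate 1, or without bleomycin replicate 3, the number lower was 3, and without control replicates 1 and 2 it was 2. Of the 26 called genes 22 kept their call when any single array was left out. The others were Sfrp2, Znrf3, Rspo4 and Daam1.

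Among the 8 other ligand genes listed, which are not the whole rest of the family, only Wnt6 was called. Wnt6 is an epithelial ligand of skin and kidney tubules. Wnt6 was measured at 5.12 to 5.34 on bleomycin arrays and 4.57 to 4.93 on control arrays, dim on both, and rose by 0.52 ± 0.10 (SE; limma adjusted p = 0.00589). Of 8 genes of Wnt secretion only Wls, the carrier of all lipidated Wnt proteins, was called. Wls was measured at 9.54, 9.51, 9.74 and 9.53 in bleomycin replicates 1 to 4, against 9.23, 9.17, 9.09 and 9.05 in control replicates 1 to 4. Every bleomycin array was higher, by 0.45 ± 0.09 on average (SE; limma adjusted p = 0.00641). Porcn, named here for its role after its value was seen, differed by 0.38 (95% interval 0.02 to 0.74) and was not called (limma adjusted p = 0.139).

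The 16 receptor genes held the ligands' counterparts. Of these 3 rose and 2 fell. Ror1 was measured at 9.22, 9.0, 9.08 and 8.80 in bleomycin replicates 1 to 4, against 7.89, 7.82, 7.89 and 7.89 in control replicates 1 to 4, and rose by 1.15 ± 0.10 (SE; limma adjusted p = 6.47e-05). Ror2, the Wnt5a receptor, was measured at 8.77, 8.80, 8.93 and 8.81 in bleomycin replicates 1 to 4, against 7.59, 7.72, 8.10 and 8.02 in control replicates 1 to 4, and rose by 0.97 ± 0.12 (SE; limma adjusted p = 0.000504). Both Ror genes were thus higher on every bleomycin array than on any control array, as Wnt5a was. The Frizzled gene Fzd1 rose by 1.0 ± 0.11 (SE; limma adjusted p = 0.000254).

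The receptors that fell were Lrp5 and Fzd4. The co-receptor gene Lrp5 was measured at 8.72, 8.94, 8.91 and 9.13 in bleomycin replicates 1 to 4, against 9.34, 9.58, 9.71 and 9.61 in control replicates 1 to 4, and fell by 0.63 ± 0.11 (SE; limma adjusted p = 0.00398). Fzd4, another Frizzled, averaged 8.94 ± 0.07 in bleomycin and 9.43 ± 0.17 in control (SD, n = 4 each) and fell by 0.48 (limma adjusted p = 0.00871). Without control replicates 1 and 2, which leaves 2 controls, the Fzd4 difference was -0.34 and was not called (limma adjusted p = 0.0881). Lrp6, the other co-receptor, differed by -0.22 (95% interval -0.42 to -0.01) and was not called (limma adjusted p = 0.141; named after its value was seen).

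**Figure D4:**
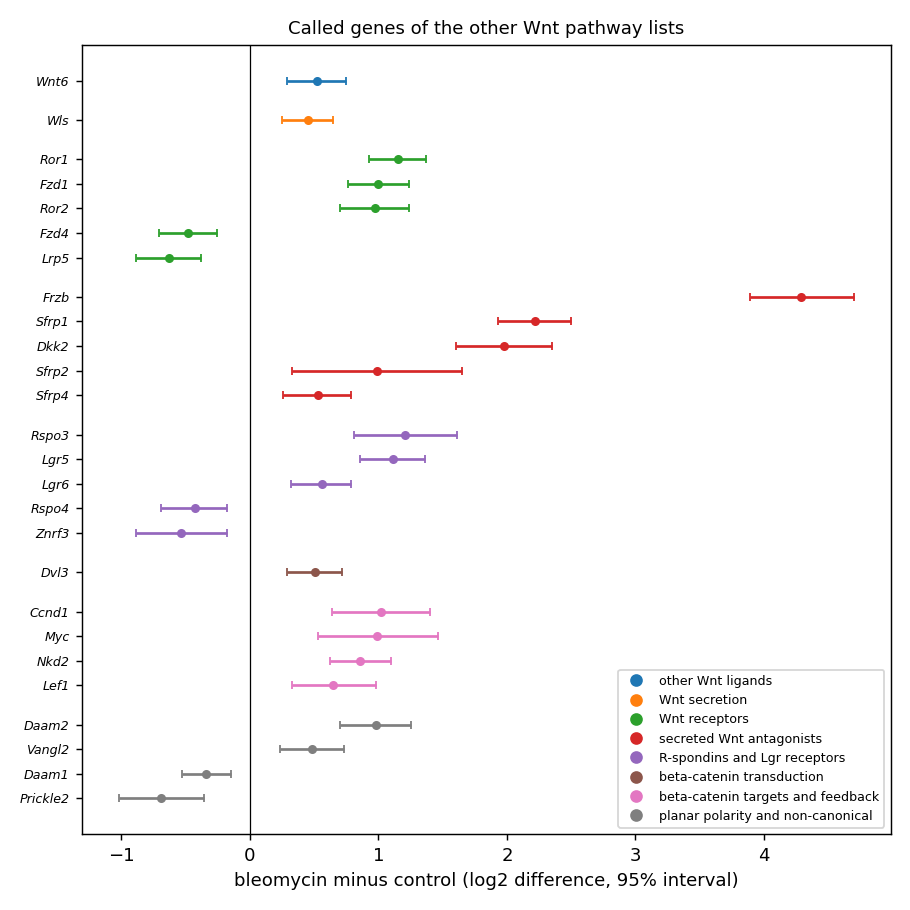
Bleomycin minus control difference (log2, horizontal axis, 95% interval, n = 4 arrays per group) of the 26 called genes among 92 other Wnt pathway genes, coloured by list. The 5 called secreted antagonists all lie above 0, up to 4.29 for Frzb, while receptors, R-spondin and polarity genes lie on both sides.

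Secreted antagonists, which bind Wnt ligands or their receptors, were called higher in 5 of 14 cases and lower in none (limma, with 1 lower at an unadjusted p under 0.05). The rises were Frzb by 4.29, Sfrp1 by 2.22, Dkk2 by 1.98, Sfrp2 by 0.99 and Sfrp4 by 0.53. The control level of Frzb, 4.12, lay below the median of probe sets without a gene, so the size of its rise is uncertain, while Sfrp2 was not called on its other, less bright probe set (0.18, limma adjusted p = 0.3). Neither Sfrp2 nor Sfrp4 was called without control replicates 1 and 2, at 1.27 and 0.37 (limma adjusted p of 0.0662 and 0.128). R-spondins and their Lgr receptors amplify Wnt signals by restraining the ubiquitin ligases Rnf43 and Znrf3, which remove Frizzled receptors from the cell surface. Of the 9 genes of this list Rspo3, Lgr5 and Lgr6 rose by 1.21, 1.11 and 0.56, and Rspo4 and Znrf3 fell by 0.43 and 0.54. Control means were dim for Dkk2 (5.14), Lgr5 (5.27), Lgr6 (5.50) and Rspo3 (5.53). Rspo4 was dim in both groups, at 5.16 in bleomycin and 5.59 in control. The sizes of these 5 changes are therefore uncertain too. The gene Lgr5 was not called on its other, less bright probe set (0.29, limma adjusted p = 0.241), and Rspo4 was not called without control replicates 1 and 2 (-0.41, limma adjusted p = 0.138).

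Inside the cell, of 14 measured genes of beta-catenin transduction only Dvl3, a scaffold that links Frizzled to the pathway, was called, and rose by 0.51 ± 0.10 (SE; limma adjusted p = 0.00503). Ctnnb1, beta-catenin itself, differed by 0.09 (95% interval -0.09 to 0.26; named after its value was seen). Of 9 targets and feedback genes 4 rose and none fell (limma, with 2 lower at an unadjusted p under 0.05). Ccnd1 and Myc, cell cycle genes that many other signals also induce, rose by 1.02 ± 0.17 and 0.99 ± 0.21 (SE; limma adjusted p of 0.00262 and 0.00896). Nkd2 and the beta-catenin partner Lef1 rose by 0.86 ± 0.11 and 0.65 ± 0.15 (SE; limma adjusted p of 0.000522 and 0.0119). Axin2, the most widely used target of beta-catenin signalling, averaged 8.16 ± 0.19 in bleomycin and 8.30 ± 0.20 in control (SD, n = 4 each) and was not called, with a difference of -0.15 and a 95% interval of -0.43 to 0.13 (named after its value was seen).

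Genes of planar polarity and other signalling without beta-catenin went both ways, with 2 of 14 higher and 2 lower. The formin-like gene Daam2 and the polarity gene Vangl2 rose by 0.98 ± 0.12 and 0.48 ± 0.11 (SE; limma adjusted p of 0.000526 and 0.0159). Daam2 was dim in control, with a mean of 5.47, so the size of its rise is uncertain. Prickle2 and Daam1 fell by 0.69 ± 0.15 and 0.34 ± 0.09 (SE; limma adjusted p of 0.0103 and 0.0216). Neither Prickle2 nor Daam1 was called without control replicates 1 and 2, with differences of -0.54 and -0.32 (limma adjusted p of 0.11 and 0.123).

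**Figure D5:**
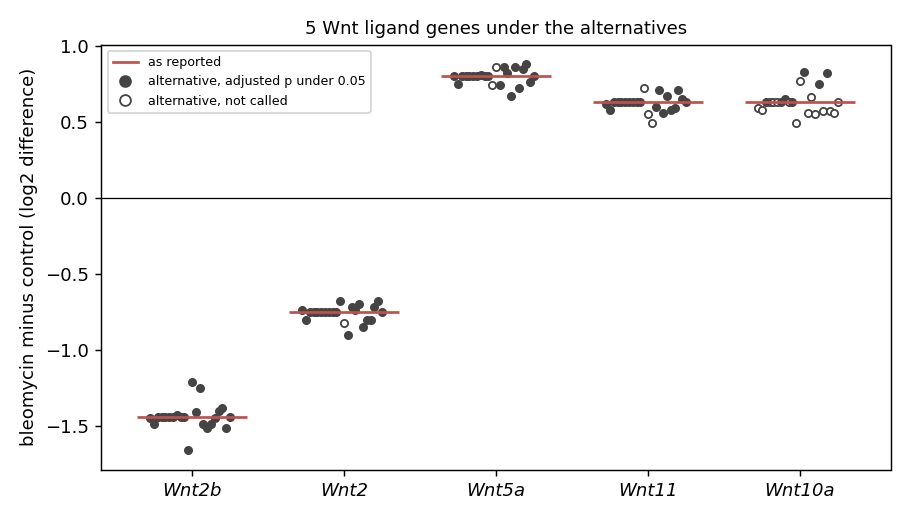
Bleomycin minus control difference (log2, vertical axis) of 5 Wnt ligand genes as reported (line) and under 22 alternatives each (points; filled where called). Wnt2b is called under all 22 and Wnt2 under 21, while Wnt10a is called under 8, with differences of 0.49 to 0.83 over all 22. Filters, other probe sets or rows, moderation and blocks leave the difference of a ligand unchanged and alter only its adjusted p.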

How the data were processed

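Lung mesenchymal cells of bleomycin-treated and control mice were profiled on 8 arrays, 4 per group, with groups and replicate numbers taken from the sample titles. Per the labels' protocols, biotinylated cRNA was made from 100 ng of total RNA. The table the authors deposited holds a single value for each probe set on each array, taken as a log2 intensity because values span 0.24 to 13.58. How the authors corrected background and normalized, and on which genome build, is not stated in the sources used here. Of 41345 rows, 23521 were annotated to 1 gene, 1814 to several and 16010 to none. Each of 22180 genes was represented by its single-gene row with the highest mean. The array medians of these genes lay within 0.071 of each other, so values were used as deposited.

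The bleomycin and control arrays were tested with limma (version 3.58.1, R 4.3.3, functions lmFit and eBayes), and two-sided p-values were adjusted by Benjamini-Hochberg over all tested genes, with a threshold of 0.05. The fit was tested on simulated data. Paralog pairs were compared by exact permutation. The ligands, lists, pairs and alternatives were chosen with earlier results of these data known. Genes named are the 10 ligands; called genes of each pathway list, all where 6 or fewer were called; and the 2 nearest profiles of each called ligand, without predicted genes. Others are marked. Alternatives were other scalings, filters, probe sets, moderation, array weights, blocks, subsets and each array left out. Same-numbered arrays of the groups deviated together with r of 0.129, 0.063, 0.114 and 0.065, too weakly to pair them. Between the groups, replicates 1 and 2 all deviated together (r of 0.063 to 0.129), as did replicates 3 and 4 (0.065 to 0.114). Replicates 1 and 2 of either group deviated oppositely to 3 and 4 of the other (r of -0.14 to -0.067). Deviations were taken from each gene's group mean and so cancel over the 4 arrays of a group. The negative values thus follow in part from the positive ones and are no separate result. Figures were drawn with matplotlib 3.10.9.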

Additional observations from a re-analysis of the deposited data

Results flagged for a closer look

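Among 72 groups of 4 arrays, 2 for each of 36 genes, 5 held 1 array set apart from the other 3, where chance gives about 1 in 20. The rule took the gap to the nearest array as a share of the group's range, here 0.831 to 0.957. A gap can thus be flagged though small in log2 units. Wnt2b was 5.63 in bleomycin replicate 1, below the other bleomycin arrays (6.34 to 6.41), and without it the difference was -1.25 and still called. Wnt10a was 6.11 in control replicate 2, above the other controls (5.33 to 5.36) and, as described, the gene was called without that array but also under alternatives that kept it. Wls was 9.74 in bleomycin replicate 3, against 9.51 to 9.54 on the other bleomycin arrays. Ror1 was 7.82 in control replicate 2, against 7.89 on each other control array. Dvl3 was 8.77 in control replicate 1, against 8.90 to 8.92 on the other control arrays. These 3 genes kept their call when any single array was left out.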

How the results depend on the processing

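Directions of all 10 ligands were the same under every alternative run. As each ligand has 1 probe set, filters, other probe sets or rows, moderation and blocks left its difference unchanged. These alternatives could alter only the adjusted p, so the same direction was fixed in advance there. Wnt2b was called under all 22, between -1.66 and -1.21, and with single arrays left out the 4 called ligands all kept their call: Wnt2b ran from -1.51 to -1.25, Wnt2 from -0.85 to -0.68, Wnt5a from 0.67 to 0.88 and Wnt11 from 0.56 to 0.71. With replicates 1 and 2 only, that is 2 arrays per group, limma called 0 ligands higher and 2 lower (2 and 3 at an unadjusted p under 0.05). With replicates 3 and 4 only it called 0 higher and 1 lower (3 and 2 unadjusted). The pathway genes gave 13 higher and 1 lower with replicates 1 and 2, and 10 higher and 0 lower with replicates 3 and 4 (20 and 9 unadjusted). Over all tested genes these fits gave 838 higher with 833 lower and 503 higher with 220 lower. Without control replicates 1 and 2 there were 1205 and 992 over all genes and 2 pathway genes lower. With single arrays left out, 3 to 7 pathway genes were lower. Without the dimmest 50% of genes 10 pathway genes were lower. Adjusting over all rows of the table gave 1987 higher and 2806 lower rows. With the replicate number as a block, Wnt2 differed by -0.75, Wnt2b by -1.44, Wnt5a by 0.80 and Wnt11 by 0.63, all called, with 1937 genes higher and 1838 lower over all; the replicate block changed no ligand call, while replicates 1 and 2 against 3 and 4 as a block changed that of Wnt10a. Wnt10a was called in 8 of 22 alternatives, from 0.49 to 0.83. For the paralog pairs, run with quantile normalization, other probe sets (the ligands have 1 each) and single arrays left out, exact permutation p adjusted over the pairs stayed at 0.0571 or more, and with 3 arrays in a group no pair alone can pass. With single arrays left out, Wnt2b minus Wnt2 ran from -0.83 to -0.54, Wnt5a minus Wnt5b from 0.86 to 1.06 and Wnt10a minus Wnt10b from 0.69 to 0.99. The causes were not tested.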
